A study of Glycine max with 4 samples.

Results

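Chromosome 10 of soybean carried a stretch of probes with very low mutant signal in 3 of the 4 mutant plants examined by aCGH. The probes described here are those that lie on chromosome 10 with a start between 14300000 and 15899999 (Glyma.Wm82.a2.v1), which gave 322 of the 951615 probes on the array. The window was chosen because its ratios were low, so the ratios inside it are given as a description. Each array compared leaf DNA of 1 fast neutron mutant plant, labeled with Cy3, with leaf DNA of the wild-type parent “M92-220” (M92-220-Long in the labels), labeled with Cy5. Plants 35 and 45 came from line CM7F040P06 (P06) and plants 15 and 39 from line CM7F040P05 (P05). The methods used plants of the M3:8 generation of a mutant whose lineage carries the P06 name, and where the P05 plants stand in it is not given in the sources used here. No dyes were swapped, and no plant was hybridized more than 1 time.

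Fast neutrons break both strands of DNA, and the loss of a piece between breaks is a common outcome of this treatment in plants. In aCGH, mutant and wild-type DNA compete for the same short oligonucleotide probes. Where the mutant lacks the sequence of a probe, the wild-type signal of that probe stays while the mutant signal drops toward the background of the array. The log2 ratio of mutant over wild type therefore lies near 0 where the copy number is equal and near -1 where a diploid plant has lost a single copy. Where both copies are missing the ratio has no true floor of its own, because it is then set by the background in Cy3 and the brightness of the probe in Cy5. All ratios below are log2 values of the processed Cy3 signal over the processed Cy5 signal, centered on the median of each array.

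Plants 35, 45 and 15 had the same low interval. A search for the single interval that best divided the 322 probes was run on each plant by itself, and it returned the same first and last probes in these 3 plants. The interval held 249 probes from 14796450 to 15370810 on chromosome 10, a length of 574.361 kb. It left 70 probes in the window to its left and 3 to its right. No interval was found in plant 39, the other P05 plant. The 2 plants of P05 were thus unlike each other here, and plant 15 had the profile of the P06 plants. The label of a chromosome 10 deletion fits the signals of plants 35, 45 and 15, and no deletion was seen in plant 39.

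The left end of the interval was sharply placed. The last probe outside, Gm_CUST_P11597413 (14793771 to 14793830), had log2 ratios of 0.02 and -0.03 in P06 plants 35 and 45 and of -0.02 and -0.17 in P05 plants 15 and 39. The first probe inside, Gm_CUST_P11597427 (14796450 to 14796503), had -6.28 and -6.42 in P06 plants 35 and 45 and -5.91 and -0.03 in P05 plants 15 and 39. The change from an equal to a very low ratio thus took place between neighboring probes that are 2.619 kb apart. That first inside probe had a Cy3 signal of 7.21 and 6.99 in P06 plants 35 and 45 and of 8.71 in plant 15, none of them well above background, and 590 in plant 39. Its Cy5 signal was 526 to 603 on the 4 arrays. A Cy3 value that is not well above background gives only a bound. It was taken against the lowest Cy3 signal that the array still measured well above background (34.4 to 42.7). A spot above that value could also fail. Gm_CUST_P11596341 did so in plant 39, with a Cy3 signal of 53.2 where the lowest passing value was 42.2. Such bounds are therefore nominal and may overstate the drop. By that bound P06 was at least 16.6-fold below “M92-220” and plant 15 at least 12.3-fold.

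The right end was less well resolved. The last probe inside, Gm_CUST_P11598293 (15370751 to 15370810), had log2 ratios of -6.64 and -6.71 in P06 plants 35 and 45 and of -6.38 and -0.05 in P05 plants 15 and 39. There P06 was at least 20.8-fold below “M92-220” and plant 15 at least 16.9-fold. The next probe, Gm_CUST_P11598295 (15401007 to 15401051), lay after a gap of 30.196 kb and had -0.53 and -0.65 in P06 plants 35 and 45 and -0.42 and -0.35 in P05 plants 15 and 39. This probe was below 0 on all 4 arrays, plant 39 included, and it was very bright, with a Cy5 signal of 17190 to 24539. If the low stretch ends before that probe, it is at most 607.176 kb long.

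A single probe farther right was also low. Gm_CUST_P11598298 (15536997 to 15537055), separated from the probe before it by 135.945 kb, had log2 ratios of -1.65 and -1.55 in P06 plants 35 and 45 and of -2.18 and -0.28 in P05 plants 15 and 39. Its Cy3 signal of 426 and 442 in P06 plants 35 and 45 and of 261 in plant 15 was well above background each time, and plant 39 had 1137. The low value was thus shared by the same 3 plants, with a smaller drop than at most probes of the interval. The last probe of the window, Gm_CUST_P11598303, was back at -0.19 and 0.03 in P06 plants 35 and 45 and at -0.18 and -0.11 in P05 plants 15 and 39, and the following probe on the chromosome came 336.708 kb later. Whether the DNA between these right-hand probes was present could not be read from the array. In plant 15 the end moved with the rule used to place it: a running median over 5 probes put it at 604.602 kb from the start, and normexp background correction at 740.606 kb, whereas plants 35 and 45 kept 574.361 kb under both.

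Inside the interval the 249 probes averaged a log2 ratio of -4.95 for P06 plant 35 and -5.06 for P06 plant 45, against -4.997 for P05 plant 15 and -0.052 for P05 plant 39. The P06 plants averaged -5.01 ± 0.080 (SD, n = 2), and the 2 P05 plants averaged -2.52 ± 3.50 (SD, n = 2), a mean that describes neither of them. After normexp background correction, which lifts dim signals, the interval means were -2.51 and -2.42 in P06 plants 35 and 45 and -2.55 in P05 plant 15, so the depth of the interval depended on how background was treated. The SD over probes was 1.96, 1.98 and 1.88 in plants 35, 45 and 15 and 0.216 in plant 39. Probes were thus spread widely in the 3 low plants and narrowly in plant 39. In plant 35, 181 of the 249 probes were at -4 or lower, 40 between -4 and -2, 22 between -2 and -1, and 6 above -1. Plant 45 had 185, 35, 22 and 7 probes in the same classes, and plant 15 had 184, 37, 21 and 7. In plant 39, 248 of the 249 probes were above -1.

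The same probes were low in each of these plants. A log2 ratio of -2 or lower was reached by 221 and 220 probes of the interval in P06 plants 35 and 45, by 221 in P05 plant 15 and by no probe of it in plant 39. Of these, 219 were the same in all 3 plants. Over the whole array, 0.133% of the probes of plant 35, 0.134% of plant 45, 0.0581% of plant 15 and 0.0418% of plant 39 were at -2 or lower. A total of 540 probes, 0.0568%, reached -2 in each of plants 35, 45 and 15, and 219 of them (40.6%) were in this interval. Of those 540 probes, 35 were at -2 or lower in plant 39 too, none of them in the interval.

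The fit of P06 from its own 2 arrays called 235 of the 322 probes lower than “M92-220” (limma treat against a log2 ratio of 1, Benjamini-Hochberg adjusted p under 0.05), where 0.158% of all 951530 probes tested were called lower. Of these, 234 were inside the interval and 1 was Gm_CUST_P11598298 to its right (adjusted p = 0.00035 by limma treat). The 15 probes of the interval that were not called had P06 means between -1.27 and -0.17. This count depended on the fit, and each background share in brackets below counts adjusted limma treat calls over all probes tested. With the spread estimated from all 4 arrays, 230 of the 322 probes were lower at an unadjusted p under 0.05 by limma treat. Over the whole array 1686 of 951298 probes were. After adjustment the count was 0 of 322 (background 0.0875%), since the difference between plants 15 and 39 then enters the spread. The count of 235 was likewise not kept in that fit without plant 35 or without plant 45, which left P06 with 1 plant. The interval mean was -5.06 in plant 45 alone and -4.95 in plant 35 alone. In P05, limma treat called 0 of the 322 probes (background 0.00547%). At an unadjusted p under 0.05 it called 48, against 381 of all 951379 probes tested. By eBayes 13 were called, against 592 of all probes tested. With plant 39 left out, and plant 15 assumed to vary like the P06 plants, 229 probes were called lower in P05 (background 0.0624%), and with plant 15 left out 0 were (0 at an unadjusted p under 0.05, background 0.0556% by limma treat). The difference of P06 minus P05 gave 0 lower probes by limma treat (1 at an unadjusted p under 0.05, 0 by eBayes, background 0.0769%) and 223 with plant 15 left out (background 0.153%). With plant 39 left out, limma treat gave 0 for that difference (0 at an unadjusted p under 0.05, background 0.0836%). With all 4 arrays, 877 of all 951298 probes were lower in that difference at an unadjusted p under 0.05 by limma treat. By eBayes 851 of all probes tested were called lower in it. The counts in the window therefore turned on which P05 plants were in the fit. The window was selected from these contrasts, so the counts are a description and not evidence for the interval.

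The mutant signal dropped to the background of the array at most probes. Inside the interval P06 plants 35 and 45 had median Cy3 signals of 24.6 and 21.7, against 22.7 and 1182 for P05 plants 15 and 39. The lowest Cy3 signals that stood well above background on the same arrays were 35.7, 34.4, 42.7 and 42.2, so the median probe of plants 35, 45 and 15 was below what could be measured. “M92-220” had a median Cy5 signal at the same probes of 1294 and 1279 beside P06 plants 35 and 45 and of 1229 and 1206 beside P05 plants 15 and 39. The wild-type signal was thus level across arrays while the mutant signal was not. Cy3 was not well above background at 157 probes (63.1%) in plant 35, 163 (65.5%) in plant 45, 165 (66.3%) in plant 15 and 2 (0.803%) in plant 39. Cy5 was well above background at every probe of the interval on the arrays of plants 35, 45 and 15, and at all but 2 on that of plant 39.

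The Cy3 signal was set against that of plant 39 at the same probe. Each dark spot was given the lowest signal that its array measured well above background. By this nominal bound the median probe of the interval kept at most 5.26% and 4.86% in P06 plants 35 and 45. In P05 plant 15 it kept at most 5.63%. The processed signals as they stand gave 2.72%, 2.42% and 2.73% in plants 35, 45 and 15, which lie below what could be measured. Over the 92, 86 and 84 probes of these plants with Cy3 well above background, the median was 11.1%, 13.2% and 10.997%. The sum of Cy3 over the interval was 11.97%, 11.6% and 10.98% of that of plant 39 in plants 35, 45 and 15, well above the share kept by the median probe. Of that sum, 92.3%, 93.3% and 92.4% came from 78 probes whose Cy3 signal stood above background in all 3 plants, and these probes made up 47.2% of the sum in plant 39. Signals of 25% or more of that of plant 39 were seen at 29, 30 and 29 probes in these plants. Plant 39 is a single array, and 6 of its 249 spots in the interval were dim in both dyes, with Cy5 under 1/3 of the median of the other arrays, so that the percentages at such spots have a small denominator. An example is Gm_CUST_P11598013 (15232842 to 15232893), with a Cy3 signal of 4158, 3842 and 3357 in plants 35, 45 and 15 but only 1041 in plant 39, where Cy5 fell short too (1265, against 5275 to 6199 on the other arrays).

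The probes of the interval were divided by whether their Cy3 signal stood well above background in plants 35, 45 and 15. In none of these plants was it above background at 152 probes (61.0%), and in all 3 it was above background at 78 (31.3%). The remaining 19 probes were mixed. The 152 dark probes had mean log2 ratios of -6.04 and -6.12 in P06 plants 35 and 45 and of -6.00 and -0.022 in P05 plants 15 and 39. Their ratios followed the brightness of the wild-type signal, with a Spearman rho against the mean Cy5 signal of -0.74 in plant 35, -0.75 in plant 45 and -0.77 in plant 15 over 152 probes. The Cy5 signal is also the denominator of the ratio, so the brightest dark probes had the lowest ratios and only the nominal bound can be read there. In P06 the bounds of these probes ran from at least 2.17-fold to at least 152-fold lower than “M92-220”, with a median of at least 26.1-fold.

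The 78 probes that kept a measurable mutant signal had mean log2 ratios of -2.96 and -2.98 in P06 plants 35 and 45 and of -3.02 and -0.13 in P05 plants 15 and 39. Their range was -6.34 to -0.17 in plant 35, -6.34 to -0.16 in plant 45 and -6.28 to -0.32 in plant 15. They were brighter in wild type, with a median Cy5 signal of 2102 against 974 for the dark probes, and fewer of them had the full length of 60 bases (41.0%, against 67.8% of the dark probes). Their ratios followed brightness weakly (Spearman rho of -0.18 in plant 35, -0.20 in plant 45 and -0.18 in plant 15 over 78 probes), less than those of plant 39 at the same probes did (-0.57). What sets these probes apart in sequence was not analysed here.

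Probes kept much the same order in plants 35, 45 and 15. Over the 249 probes, log2 ratios correlated with a Pearson r of 0.96 between plants 35 and 45, 0.95 between 35 and 15, and 0.96 between 45 and 15, while r with plant 39 was between -0.0021 and 0.0073. Among the 78 probes with measurable Cy3 in plants 35, 45 and 15, r was 0.98 to 0.99 between these plants, and the median absolute difference was 0.082 between plants 35 and 45 and 0.15 between either of them and plant 15. Probes are not independent replicates, and the same Cy5 DNA and probe brightness are shared by all arrays. In the 73 flank probes r between these plants was 0.89, 0.94 and 0.81, so a high r was not limited to the interval. Among the dark probes r was 0.87 to 0.92. The spread between plants 35, 45 and 15 exceeded 1 at 31 probes and 2 at 6 probes. None of these 6 had Cy3 above background in all 3 plants. The widest was Gm_CUST_P11597759 (14935785 to 14935844), where the Cy3 signal was 88.6 in plant 35, 7.01 in plant 45 and 9.09 in plant 15, giving log2 ratios of -2.95, -6.79 and -6.57, against 0.02 in plant 39. A single array stood apart at that probe.

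The lowest ratios of the interval belonged to bright probes with no measurable mutant signal. Gm_CUST_P11597597 (14903281 to 14903340) had -8.71 and -8.98 in P06 plants 35 and 45 and -8.66 and -0.26 in P05 plants 15 and 39. Its Cy3 signal of 9.81, 8.75 and 10.5 in plants 35, 45 and 15, against 2968 in plant 39, gave a bound of at least 122-fold in P06 and at least 100-fold in plant 15. Gm_CUST_P11598171 (15339746 to 15339803) gave the strongest bound, at least 152-fold lower than “M92-220” in P06 and at least 122-fold lower in plant 15. The other 3 of the 5 lowest probes, ranked by their mean over plants 35, 45 and 15, were Gm_CUST_P11597978 (at least 110-fold in P06), Gm_CUST_P11597714 (at least 72.4-fold) and Gm_CUST_P11597960 (at least 150-fold). These 5 probes lay far apart, between 14903281 and 15339803, so strong loss of signal was not limited to a single stretch of the interval.

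A small set of probes kept much of their signal. Of the 249 probes, 6 were above -1 in each of plants 35, 45 and 15, and 8 were above -1 in any of them. The highest was Gm_CUST_P11597470 (14804608 to 14804667), with -0.17 and -0.16 in P06 plants 35 and 45 and -0.32 and 0.01 in P05 plants 15 and 39. Its Cy3 signal of 1498, 1439 and 1299 in plants 35, 45 and 15 was 78.5%, 75.4% and 68.1% of the 1908 of plant 39. Gm_CUST_P11598008 (15231282 to 15231332) had -0.36 and -0.41 in P06 plants 35 and 45 and -0.38 and -0.08 in P05 plants 15 and 39. The other 3 of the 5 highest were Gm_CUST_P11598013, Gm_CUST_P11597456 and Gm_CUST_P11597994, with ratios between -0.93 and -0.57 in plants 35, 45 and 15, against -0.28, -0.17 and 0.28 in plant 39. The ratio of each of these 5 probes was lower in plants 35, 45 and 15 than in plant 39, but the Cy3 signal was not in every case. Gm_CUST_P11598008 had Cy3 signals of 4617, 4581 and 4678 in plants 35, 45 and 15, against 4585 in plant 39, and Gm_CUST_P11598013 was brighter in these plants than in plant 39, whose spot was dim in both dyes.

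Probes with an intermediate ratio lay singly or in short runs. No run of 3 or more neighboring probes stayed above -1 in any of plants 35, 45 and 15. With the limit moved to -2, a choice made after the values were seen, 26 probes were above it in all 3 of these plants, 25 of them with Cy3 above background in each plant. They held 2 runs of 3 or more common to these plants, both near the left end. The first had 5 probes from 14800052 to 14804667, Gm_CUST_P11597456 to Gm_CUST_P11597470, with means of -0.93 and -0.89 in P06 plants 35 and 45 and of -1.001 and -0.11 in P05 plants 15 and 39. The second had 3 probes from 14816366 to 14817130, with means of -1.26 and -1.35 in P06 plants 35 and 45 and of -1.34 and -0.081 in P05 plants 15 and 39. The first run had 6 low probes between it and the left end. Its neighbors were Gm_CUST_P11597455 on the left, with -5.39 and -5.47 in P06 plants 35 and 45 and -4.91 and -0.13 in P05 plants 15 and 39, and Gm_CUST_P11597474 on the right, with -3.04 and -2.97 in P06 plants 35 and 45 and -2.94 and -0.04 in P05 plants 15 and 39. The second run was bounded less steeply, by Gm_CUST_P11597487 (-2.31 and -2.30 in P06 plants 35 and 45, -2.49 and -0.01 in P05 plants 15 and 39) and Gm_CUST_P11597495 (-2.59 and -2.34 in P06 plants 35 and 45, -2.27 and 0.18 in P05 plants 15 and 39). A further run, of 4 probes from 14893447 to 14895167, stayed above -2 in P06 plants 35 and 45 (means of -1.37 and -1.34), but only 2 of its probes did so in plant 15 (mean of -1.59, against -0.072 in plant 39). Plants 35 and 45 thus had 3 such runs each and plant 15 had 2.

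Probe coverage was uneven along the interval. It held 433.5 probes per Mb, against 979.8 per Mb over chromosome 10 as a whole, on an array that its designers spaced to favor genic regions. The 5 longest gaps between neighboring probes were 94.7, 64.5, 44.6, 41.4 and 27.3 kb, and together they made up 272.6 kb or 47.5% of the interval. No ratio was measured in those gaps, so a retained piece within them would not have been seen. The gaps divided the probes into 6 blocks. Block 1, from 14796450 to 14828822, had means of -3.89 and -3.91 in P06 plants 35 and 45 and of -3.97 and -0.029 in P05 plants 15 and 39, and 9 of its 31 probes were above -2 in plants 35, 45 and 15. Block 4, from 15090936 to 15118259, was the lowest, with -6.03 and -6.07 in P06 plants 35 and 45 and -5.83 and -0.057 in P05 plants 15 and 39 over 8 probes, none above -2. Block 3, the smallest with 3 probes, had -3.55 and -3.67 in P06 plants 35 and 45 and -3.68 and -0.033 in P05 plants 15 and 39. Probes above -2 in plants 35, 45 and 15 numbered 9, 6, 1, 0, 6 and 4 in blocks 1 to 6, which held 31, 79, 3, 8, 52 and 76 probes. They were thus spread over 5 of the 6 blocks. The 3 blocks with over 50 probes lay between -5.29 and -4.99 in plants 35, 45 and 15, and between -0.13 and 0.0081 in plant 39. All 6 blocks were thus low in the same 3 plants, on both sides of every gap.

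The left flank averaged close to 0 in all 4 plants, with 0.062 and 0.039 in P06 plants 35 and 45 and 0.052 and 0.035 in P05 plants 15 and 39 over 70 probes. The 3 probes of the right flank, described above one by one, averaged -0.79 and -0.72 in P06 plants 35 and 45 and -0.92 and -0.25 in P05 plants 15 and 39. Over all 73 probes the mean log2 ratio was 0.027 and 0.0074 in P06 plants 35 and 45 and 0.012 and 0.023 in P05 plants 15 and 39. The difference between P06 and P05 was smaller than the spread between plants (0.017 ± 0.014 in P06 and 0.018 ± 0.0077 in P05, SD, n = 2 each, two-sided exact permutation test p = 1, where 2 plants against 2 cannot go below p = 0.333). All 4 plants were within 0.5 of 0 at 61 of the 73 probes. Of the 12 others, 6 had a Cy5 signal that was not well above background on at least 1 array. The most extreme was Gm_CUST_P11596341 (14325864 to 14325910), the first probe of the window, with 1.19 and 0.75 in P06 plants 35 and 45 and 1.21 and 2.42 in P05 plants 15 and 39, where Cy5 was not well above background on any array. No plant had a ratio there that could be measured.

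A group of 3 neighboring probes in the left flank was slightly low in the same plants as the interval. They lay between 14760436 and 14762789, 33.66 kb before its first probe, and were picked out after their values were seen. They averaged -0.44 and -0.45 in P06 plants 35 and 45, against -0.39 and 0.04 in P05 plants 15 and 39. Over single probes, plants 35, 45 and 15 ranged from -0.54 to -0.35 and plant 39 from -0.043 to 0.14. Because of how the probes were picked, this difference is a description only. Ranges over probes also do not measure the spread between plants. None of these 3 probes was called by limma treat, and the 7 probes between them and the interval included values near 0 in every plant. They also included slightly low ones. Gm_CUST_P11597367 and Gm_CUST_P11597389 had means of -0.32 and -0.34 in P06 and of -0.36 and -0.24 in P05. The P05 means pool plants 15 and 39 and do not show whether these plants differed there.

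The same search was run in 3 other windows, which were known from earlier results of these data to hold low intervals. On chromosome 10, from 19986042 to 21290005, 264 probes had mean log2 ratios of -4.83 and -4.87 in P06 plants 35 and 45 and of -4.76 in plant 15 of P05. On chromosome 6, from 18128869 to 18201820, 49 probes had -4.56 and -4.64 in P06 plants 35 and 45 and -4.55 in plant 15 of P05. Plant 39 had no interval in either window, as on chromosome 10 here, where the same plants were low. On chromosome 7, from 25565157 to 29366100, 997 probes had -4.05 and -4.09 in P06 plants 35 and 45, and neither P05 plant had an interval.

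These means rest on different probes, and most of the spots behind them gave only bounds. Over plants 35, 45 and 15, the interval was set against the other chromosome 10 interval and the chromosome 6 interval. For the means and for the shares below, each exact permutation test gave p = 0.25. That is the smallest p that 3 plants allow, so these tests cannot decide whether the intervals differ. Cy3 was not well above background at 63.1%, 65.5% and 66.3% of the probes of the interval described here in plants 35, 45 and 15, and at 68.2%, 66.7% and 71.6% of those of the other chromosome 10 interval. Probes above -2 made up 11.2%, 11.6% and 11.2% of the interval in these plants, and 13.6%, 13.6% and 12.5% of the other chromosome 10 interval. Of these 2 chromosome 10 intervals, the one described here thus had both the smaller share of dark probes and the smaller share of probes above -2. Its probes were brighter in Cy5, with medians of 1229 to 1294 against 936 to 989, and the part of brightness in these values was not tested. The chromosome 6 interval had fewer dark probes than the interval described here, with 57.1%, 61.2% and 59.2% in plants 35, 45 and 15. Its share above -2 was 12.2% in each of these plants. In the chromosome 7 interval of P06 the share above -2 was 28.1% in plant 35 and 27.98% in plant 45.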

How the data were processed

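Genomic DNA from leaves of 4 mutant plants (2 of P06, 2 of P05) was compared with “M92-220” DNA on Agilent CGH arrays, 1 plant per array. The authors deposited spot files from Agilent Feature Extraction 12.0.0.7 and a table of processed log2 ratios. Per the file headers, the processed intensity of each dye had its background subtracted, was then detrended and was scaled linearly between dyes. That table differed from the scanner ratios by a constant per array (within 0.01 at 99.98% or more of the probes), with medians of -0.049, -0.051, -0.024 and -0.024 for plants 35, 45, 15 and 39. The comparison covered 939544 to 940973 probes per array, fewer than the 951615 on the array. Positions and background calls were also taken from the deposited output, whose names give the build. Flagged spots (210 to 861 per array) were removed and spots of a probe averaged. Each array was centered on its median ratio, without loess or quantile normalization. The number of arrays limits the precision.

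Tests used limma 3.58.1 (R 4.3.3; lmFit, then treat against 1, Benjamini-Hochberg over all probes tested), each line from its own arrays and P06 minus P05 from all 4 arrays. The ratio against “M92-220” leaves out the spread of “M92-220” itself. The plants are separate individuals by their labels, and each line has only 2. The spread of each probe was moderated by limma over all probes (prior degrees of freedom of 8.97 in P06 and 6.25 in P05). The p-values thus rest largely on the spread of other probes and little on that between the plants at the probe itself. The interval of a plant was the least-squares division of the window into 1 interval and the rest, accepted where its mean was -1 or lower. The window, the intervals compared, the tests and the alternatives were chosen with earlier results of these data known, including that the fit of all 4 arrays called no probe lower here. The methods call aberrations in each hybridization alone, and each line was fitted alone on that ground. Both procedures were tested on simulated data. The interval simulation lowered every inside probe strongly and left more probes outside each end than the right flank here holds. It therefore does not check the placement of the right end or the effect of probes that kept signal. The noise of the probe-test simulation was changed from the raw to the moderated SD after a first run recovered none of the probes with the smaller changes, so the simulation does not check the test at the raw spread.

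Named probes were the probes at both ends of the interval, the 5 highest and 5 lowest inside, the longest gaps and flank probes beyond 1 in any plant. Others are said to be chosen after their values were seen, as were the probe with the widest spread and the last probe of the window. Genes and probe sequences were not analysed here. Normexp (offset 50), an alternative, used median spot and background signals. Intervals were searched in Python 3.11.15.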

Additional observations from a re-analysis of the deposited data

How the results depend on the processing

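Of 101 alternative values for 17 results, 73 stayed within the limits set for them and 28 moved beyond them. The count of lower P06 probes was 235 (0.158% of all probes tested) and 0 with all 4 arrays in the fit (0.0875% of all probes tested). It was not kept either when a P06 plant was left out, with interval means of -5.06 in plant 45 alone and -4.95 in plant 35 alone. The lone plant was then assumed to vary like the P05 plants, which differ from each other here. The count of P05 was 0, with 13 by eBayes and 0 to 229 when a P05 plant was left out (229 without plant 39). The count of P06 minus P05 was 0, with 0 to 223 when a plant was left out (223 without plant 15). The length in plant 15 was 604.602 kb by a running median and 740.606 kb after normexp. Normexp, whose offset raises dim signals, brought the interval means to -2.51, -2.42 and -2.55 in plants 35, 45 and 15. Medians in place of means gave -5.33, -5.44 and -5.33. Flank means moved to 0.0048, -0.0067, -0.028 and -0.0062 in plants 35, 45, 15 and 39 in the authors' ratios, to 0.054 in plant 45 and -0.027 in plant 15 after normexp, and to 0.022 in plant 45 and -0.028 in plant 39 as medians, so these means near 0 changed sign in plants 45, 15 and 39. The residual Cy3 signal was 2.44%, 2.19% and 2.11% in plants 35, 45 and 15 from background-subtracted signals, and 11.1%, 13.2% and 10.997% over probes well above background only. The authors' ratios were available on all 4 arrays for 318 of the 322 probes of the window. Except where stated, the cause was not tested. No paired analysis was possible because no plant number is shared between P06 and P05. Each slide held 1 array, so slide and plant cannot be told apart. Below the lowest measured Cy3 signals of 34.4 to 42.7 the arrays gave nominal bounds only.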
